A study of Drosophila melanogaster with 28 samples.

Results

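The cytochrome P450 genes of Drosophila melanogaster were followed here in embryos of 7 mutant groups and of the control stock w1118. A gene counted as a member when its symbol began with Cyp, a number, a letter and a second number. This rule, which used no measured value, found 85 members among 17936 genes in the tables. The members fell into 4 clans, which are old branches of the P450 tree assigned by family number. The CYP3 clan held 40 members, the CYP4 clan 32, the mitochondrial clan 9 and the CYP2 clan 4. The largest families were Cyp6 with 25 members, Cyp4 with 22, Cyp12 with 7, and Cyp9 and Cyp313 with 6 each. 2 members were annotated pseudogenes. On the BDGP6 (dm6) build, 34 members lay on chromosome arm 2R, 16 on 3R, 14 on 2L, 14 on X and 6 on 3L. Cyp6a21 was the 1 member not placed, so it could not be assigned to a cluster. Neighbouring members lay close together: 48 of them sat in 17 clusters with gaps of at most 20 kb.

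P450 enzymes hold a haem and use oxygen and electrons to oxidise small molecules. Most insect P450s sit in the endoplasmic reticulum and take electrons from the reductase Cpr, whereas the mitochondrial clan is served by the adrenodoxin reductase dare and the ferredoxins. In flies the family makes and breaks down the moulting hormone ecdysone, makes the hydrocarbons that waterproof the cuticle, and oxidises plant toxins and insecticides in midgut, Malpighian tubules and fat body. Several ecdysone-making P450s carry Halloween names (spo, phm, dib, sad and shd) and so were not members.

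RNA extracted from whole embryos was profiled by mRNA-seq with short reads, and reads per gene were counted for 28 libraries. At 14 to 16 h after egg laying there were 4 libraries each of nej3, nejEP1179 and w1118. The gene nej codes for CBP/p300, a histone acetyltransferase. At 16 to 18 h there were 2 libraries labelled Dfd1 (the Hox gene Deformed), 3 labelled ez731 (E(z), the methyltransferase of Polycomb repressive complex 2), 2 labelled psce22 and 3 labelled psch27 (Psc, a subunit of Polycomb repressive complex 1), 3 labelled SppsG8810 (Spps, a zinc finger protein that binds Polycomb response elements) and 3 of w1118. Mutant stocks were kept heterozygous over balancers marked with GFP, and mutant embryos were chosen by their shape and by lack of GFP, so each mutant library was a pool of hand-selected embryos. The study calls the libraries of a genotype biological replicates. Whether they came from separate crosses or collections is not stated, and each p-value reflects the scatter among these libraries. In RNA from whole embryos, fewer cells of a type and less RNA per cell cannot be told apart. Mutants and w1118 were different stocks, so effects of a mutation and of the rest of the stock background cannot be told apart either.

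Library totals were 13129082 to 21509453 counts at 14 to 16 h and 17940038 to 22354257 at 16 to 18 h. Several labels at 16 to 18 h disagreed with other evidence, and groups are therefore named as labelled. Mean counts in the deposited comparison tables, recomputed from 364 sets of columns, showed that the table named ez731 was made from the 2 libraries labelled psce22 plus psch27 replicate 1, the table named psce22 from psch27 replicates 2 and 3, the table named psch27 from the libraries labelled SppsG8810, and the table named SppsG8810 from those labelled ez731. E(z) stood at 14.2 to 15.5 CPM (counts per 1000000 counts) in the libraries labelled psce22 and 15.7 in psch27 replicate 1, against 24.3 ± 1.37 (SD, n = 3) in w1118 and 21.5 ± 0.684 (n = 3) in the libraries labelled ez731. Psc averaged 328.8 CPM in the 3 libraries labelled SppsG8810 and 28.1 ± 3.42 (n = 3) in w1118. It stood at 121 and 128 CPM in psch27 replicates 2 and 3, but at 18.1 CPM in psch27 replicate 1 and 19.4 and 21.9 CPM in the libraries labelled psce22. Dfd averaged 7.79 CPM in Dfd1 and 18.7 in w1118, and Spps 15.2 in the libraries labelled SppsG8810 and 14.8 in w1118. Over the P450 genes, psch27 replicate 1 correlated at 0.99 and 0.98 with the libraries labelled psce22 and at 0.90 and 0.91 with psch27 replicates 2 and 3 (Pearson correlation of log2(CPM + 1) across 85 genes, which are not independent). Results for the groups labelled psce22 and psch27 are given as labelled and, where it matters, with psch27 replicate 1 moved or left out. Eggshell and yolk transcripts, which are made in the mother, summed to 1177 and 3905 CPM in the Dfd1 libraries and to 101 to 1366 CPM in those labelled ez731, against 8.35 to 36.7 in w1118. Their part in the results below was not tested.

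In w1118 the family was broadly but unevenly expressed. The 85 members summed to 1225 ± 16.7 CPM at 14 to 16 h (SD, n = 4) and 2031 ± 76.0 at 16 to 18 h (n = 3). The ages were counted in separate tables and are only set side by side. A mean of at least 1 CPM was reached by 48 members at the earlier age and 63 at the later, of at least 10 CPM by 23 and 34, and of at least 100 CPM by 4 and 5. The CYP2 clan gave 375 of the 1225 CPM at the earlier age, the CYP3 clan 369, the CYP4 clan 263 and the mitochondrial clan 219. At the later age the CYP3 clan gave 881 CPM, the CYP4 clan 539, the CYP2 clan 496 and the mitochondrial clan 116.

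Per kilobase of exon, which allows levels of different genes to be compared, Cyp304a1 stood highest in w1118 at both ages (139.6 and 136 CPM per kb). At 14 to 16 h it was followed by Cyp4g1 (61.4 CPM per kb), the enzyme that makes cuticular hydrocarbons in oenocytes. Next in order were Cyp301a1 (48.5), which is needed for adult cuticle, Cyp18a1 (42.6), which inactivates ecdysone by oxidising its side chain, Cyp49a1 (41.0) and Cyp6a23 (27.8). At 16 to 18 h the order after Cyp304a1 was Cyp18a1 (83.7 CPM per kb), Cyp6a23 (75.6), Cyp4g1 (62.4), Cyp28d1 (62.4) and Cyp9b2 (59.95). Cyp4g1 and Cyp28d1 cannot be ordered, since the 3 w1118 libraries of Cyp28d1 spread from 79.5 to 125 CPM.

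14 members never reached a mean of 1 CPM in any of the 9 groups. They included Cyp303a1, which is needed for bristles and cuticle, Cyp6t3, which takes part in ecdysone synthesis in the larval prothoracic gland, and Cyp4d21, a male fat body gene of the sex determination pathway. Cyp303a1 ranged from 0 to 0.393 CPM, Cyp6t3 from 0 to 0.113 CPM and Cyp4d21 from 0 to 0.578 CPM over the 28 libraries, and none of these genes could be tested at either age. At the other end, 43 members had a mean of at least 1 CPM in all 9 groups.

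**Figure D1:**
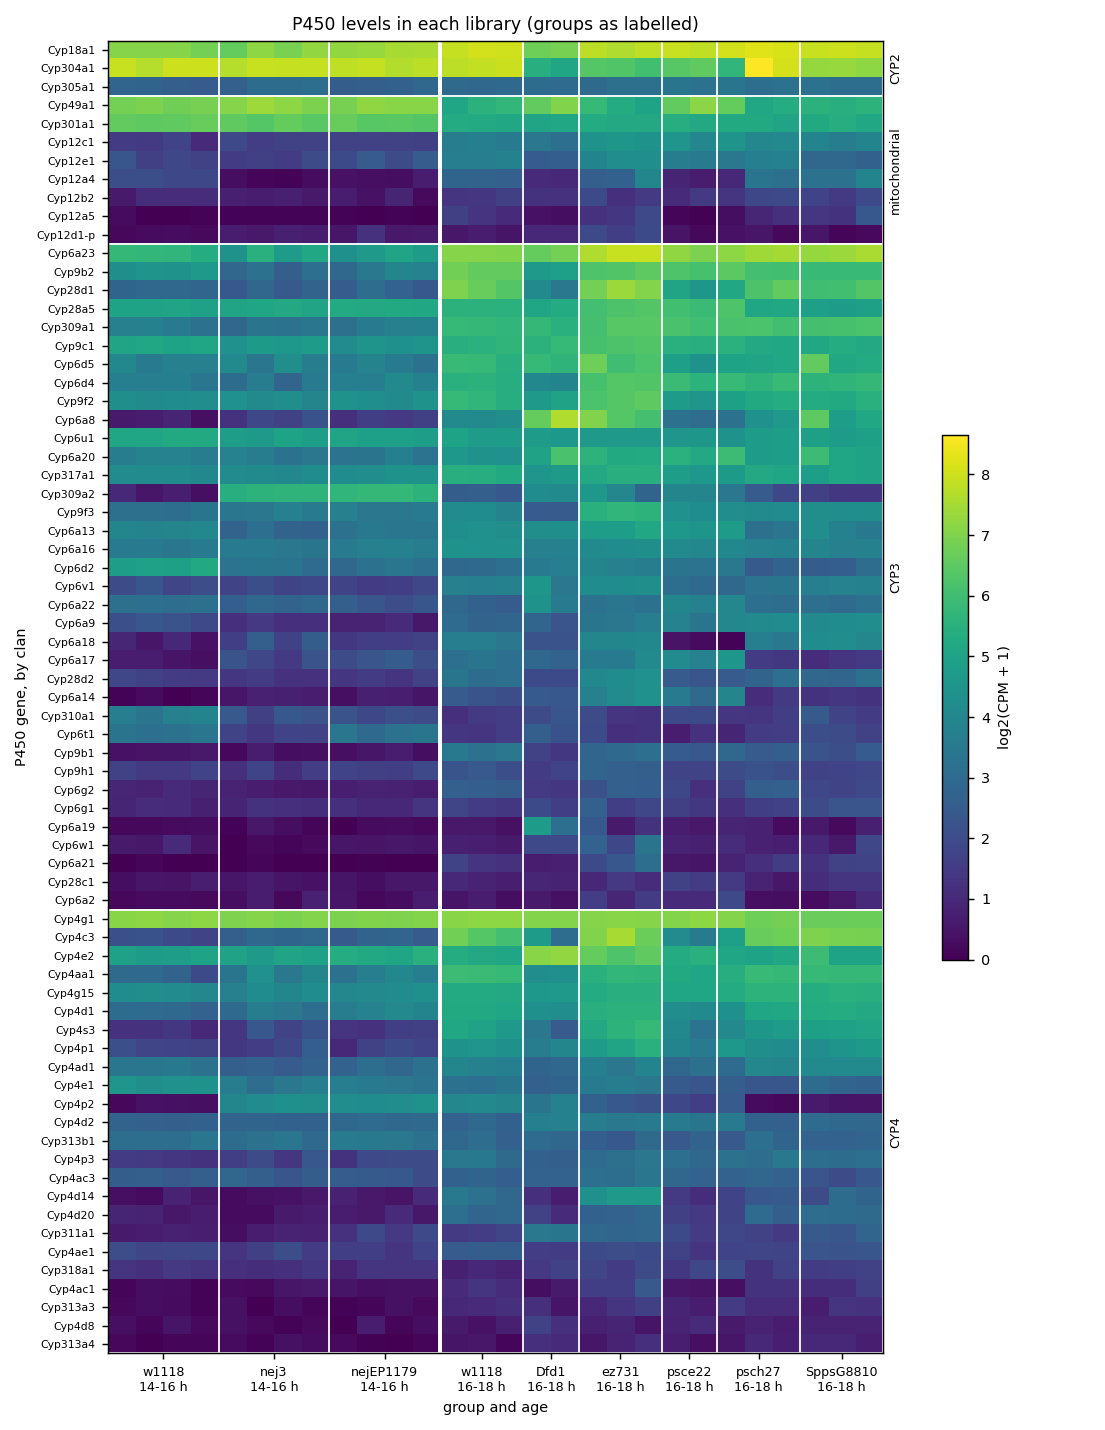
Level of each P450 gene in each library, as log2(CPM + 1), for the 71 members that reached a mean of 1 CPM in at least 1 of the 9 groups. Rows are genes ordered by clan and mean level, columns are libraries by labelled group, and the thick white line separates the 2 ages. Psch27 replicate 1 (the first of its 3 columns) is dark for Cyp6a18 at 0.0483 CPM, as are both libraries labelled psce22.

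The nej alleles at 14 to 16 h were each compared with w1118, so differences in nej and other differences between the stocks cannot be told apart. Summed levels were close to the control: the 85 members came to 1191 ± 75.9 CPM in nej3 and 1253 ± 36.5 CPM in nejEP1179 (SD, n = 4 each), against 1225 ± 16.7 in w1118. Single genes moved much further. Of 61 members tested, 13 rose and 12 fell in nej3, where 12.3% of all 10397 genes tested rose, 11.7% fell and 24.0% were called in either direction (edgeR quasi-likelihood test, adjusted p under 0.05). In nejEP1179, 16 rose and 14 fell, against 12.6%, 12.3% and 24.9% of all genes. The P450 calls thus made up 41.0% and 49.2% of the members tested. Both comparisons share the 4 w1118 libraries. The median log2 change was -0.06 in nej3 and 0.01 in nejEP1179, beside -0.01 and -0.00 over all genes. The remaining 24 members were too low to test, with means of at most 0.609 CPM. 13 of the 61 were under 1 CPM in w1118, so these counts cover the members that passed the filter and not the whole family. They include Cyp309a2, Cyp4p2, Cyp6a8, Cyp6a17, Cyp6a18, Cyp12d1-d and Cyp12d1-p, called higher in both alleles, and Cyp311a1, called higher in nejEP1179. Members low in w1118 can pass the filter through the mutant libraries, which favours rises in these counts and shares. nej itself stood at 243 ± 11.3 CPM in nej3, 415 ± 80.6 in nejEP1179 and 249 ± 11.7 in w1118, so its RNA level does not check the alleles.

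Cyp309a2 (chromosome 2L, 2564886 to 2573037) and Cyp4p2 (chromosome 2R, 9237512 to 9239831) showed the largest rises of members with at least 1 CPM in a group. Cyp309a2 was counted at 1.01, 0.426, 0.638 and 0.274 CPM in the 4 w1118 libraries, 41.7, 47.0, 48.2 and 48.5 in nej3 and 51.2, 52.9, 53.6 and 47.8 in nejEP1179. All 8 mutant libraries were far above all 4 controls, with log2 changes (± SE) of 6.27 ± 0.16, adjusted p = 1.26e-12 in nej3 and 6.41 ± 0.16, adjusted p = 1.03e-12 in nejEP1179. Cyp4p2 gave 0.144, 0.332, 0.319 and 0.274 CPM in w1118, 14.6, 16.99, 19.5 and 18.4 in nej3 and 17.8, 17.5, 18.3 and 20.2 in nejEP1179. Here too the mutant and control libraries did not overlap (5.99 ± 0.16, adjusted p = 8.97e-13 and 6.07 ± 0.16, adjusted p = 7.04e-13). A direct neighbour of each gene, chosen after values were seen, did not pass the test. Cyp309a1, which ends just short of Cyp309a2 (chromosome 2L, 2562483 to 2564830), changed by -0.43 ± 0.17, adjusted p = 0.09298 in nej3, and its libraries overlapped those of w1118. Cyp4p1, next to Cyp4p2, changed by 0.11 ± 0.34, adjusted p = 0.859 in nej3, again with overlap.

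Among members known from toxin and insecticide metabolism, Cyp6a8, a gene induced by many compounds, was at 0.529, 0.616, 0.865 and 0.274 CPM in w1118, 1.38, 2.65, 2.3 and 3.56 in nej3 and 1.22, 2.04, 1.71 and 2.13 in nejEP1179. It rose in both alleles without overlap (2.08 ± 0.32, adjusted p = 0.0002001 and 1.59 ± 0.34, adjusted p = 0.00279). Cyp12a4, which confers lufenuron resistance when overexpressed, fell from 3.22, 3.22, 2.64 and 2.69 CPM in w1118 to 0.251, 0.102, 0.050 and 0.2297 in nej3 and 0.333, 0.285, 0.259 and 0.632 in nejEP1179. This was the steepest fall of the family in both alleles (-4.22 ± 0.32, adjusted p = 1.24e-07 and -3.03 ± 0.28, adjusted p = 1.07e-06). Cyp12d1-d and Cyp12d1-p, inducible neighbours with near-identical sequence between which reads may be split, both rose. Cyp12d1-d had 0 counts in all 4 w1118 libraries, and its mean of 0.597 CPM in nej3 and 0.836 CPM in nejEP1179 was at least 16.3-fold and 22.9-fold higher than the value of 3 counts over the w1118 group (adjusted p = 0.00303 and 0.00101). Cyp12d1-d thus passed the filter on low counts only through mutant libraries, which favours a rise. Cyp12d1-p changed by 1.65 ± 0.44, adjusted p = 0.0129 and 1.97 ± 0.43, adjusted p = 0.00341, from 0.144 to 0.228 CPM in w1118 to 0.445 to 1.33 CPM in the mutants. Cyp6g1, the DDT resistance gene, stayed between 0.713 and 1.5 CPM in all 12 libraries and did not pass the test (0.36 ± 0.23 in nej3, 0.27 ± 0.24 in nejEP1179).

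Cyp6a17, which sets temperature preference in adult flies, rose from 0.626, 0.569, 0.4099 and 0.274 CPM in w1118 to 3.64, 2.603, 1.75 and 3.68 in nej3 and 2.95, 3.89, 4.72 and 3.16 in nejEP1179 (2.59 ± 0.30, adjusted p = 1.20e-05 and 2.95 ± 0.29, adjusted p = 2.35e-06). Cyp6a18 rose as well, from 0.329 to 1.002 CPM in w1118 to 2.07 to 5.15 CPM in nej3 and 1.67 to 2.29 CPM in nejEP1179 (2.40 ± 0.37, adjusted p = 0.000309 and 1.54 ± 0.39, adjusted p = 0.0118). The groups did not overlap for either gene. Cyp4aa1 was called in both alleles (1.25 ± 0.32, adjusted p = 0.0182 and 1.08 ± 0.33, adjusted p = 0.0357), from 7.03, 6.82, 5.78 and 2.85 CPM in w1118 to 9.29, 19.6, 9.95 and 14.9 in nej3 and 8.39, 12.1, 15.4 and 12 in nejEP1179. Its call in nejEP1179 was lost without nejEP1179 replicate 2, 3 or 4 or w1118 replicate 2, 3 or 4 (adjusted p up to 0.0902).

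Other members fell. Cyp6d2 was counted at 27.8, 30.3, 29.2 and 37.6 CPM in w1118, 8.85, 9.39, 8.95 and 7.12 in nej3 and 6.67, 8.68, 9.45 and 8.05 in nejEP1179. The mutant libraries lay together below all controls (-1.86 ± 0.12, adjusted p = 1.79e-08 and -1.92 ± 0.12, adjusted p = 1.16e-08). Its exons overlap those of a gene on the other strand by 897 bases, and the strand setting of the counts is not given, so reads of that gene may be included. Cyp310a1 fell from 12.1, 9.05, 12.7 and 14.04 CPM to 4.39, 2.14, 4.2 and 3.68 in nej3 and 3.67, 2.705, 3.37 and 2.92 in nejEP1179 (-1.74 ± 0.19, adjusted p = 1.01e-05 and -1.91 ± 0.19, adjusted p = 4.38e-06). Cyp6a9 fell from 3.32, 4.07, 3.598 and 2.797 CPM to 1.32, 1.74, 1.3 and 1.26 in nej3 and 0.778, 0.807, 1.04 and 0.474 in nejEP1179 (-1.29 ± 0.19, adjusted p = 0.000126 and -2.11 ± 0.21, adjusted p = 2.22e-06), although 397 bases of its exons overlap an opposite gene. Cyp9b2 fell in both as well, from 18.9, 21.4, 20.4 and 24.5 CPM to 6.21, 8.63, 5.2 and 7.87 in nej3 and 6.67, 10.01, 14.7 and 13.4 in nejEP1179 (-1.61 ± 0.23, adjusted p = 0.000372 and -0.93 ± 0.22, adjusted p = 0.00994).

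Among the 6 most abundant members, Cyp6a23 was at 53.4, 51.6, 50.6 and 40.3 CPM in w1118, 20.96, 44.6, 26.4 and 34.3 in nej3 and 19.1, 24.3, 32.5 and 25.9 in nejEP1179. It fell in nejEP1179, where no library overlapped the controls (-0.94 ± 0.23, adjusted p = 0.0156), and did not pass in nej3 (-0.63 ± 0.23, adjusted p = 0.0753). The other 5 showed smaller differences. Cyp304a1 ranged from 203 to 256 CPM over the 12 libraries (-0.06 ± 0.07 in nej3 and -0.11 ± 0.07 in nejEP1179), with overlapping groups and adjusted p of 0.634 and 0.304. Cyp301a1 ranged from 80.8 to 99.7 CPM (-0.08 ± 0.07 and -0.11 ± 0.07, adjusted p = 0.432 and 0.243). Cyp4g1 lay at 139, 143, 135 and 143 CPM in w1118 and at 123 to 134 CPM in the 8 mutant libraries, a small difference that was called in nejEP1179 (-0.13 ± 0.04, adjusted p = 0.0308) and missed the threshold in nej3 (-0.12 ± 0.04, adjusted p = 0.0582). The call in nejEP1179 was lost without nejEP1179 replicate 1, 2 or 3 or w1118 replicate 1, 2 or 4 (adjusted p up to 0.0831). Cyp18a1 did not pass in either (-0.02 ± 0.13, adjusted p = 0.944 in nej3 and 0.38 ± 0.13, adjusted p = 0.0574 in nejEP1179), nor did Cyp4g15, a relative of Cyp4g1 known from the nervous system (-0.13 ± 0.11 and -0.02 ± 0.11). Cyp49a1 was called in nej3 with overlapping libraries (0.28 ± 0.09, adjusted p = 0.03803), and that call was lost without nej3 replicate 2 or 3 or w1118 replicate 1, 3 or 4 (adjusted p up to 0.103).

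Heat shock transcripts summed to 1935 to 3203 CPM in nej3 and 695 to 1328 in nejEP1179, against 622 to 642 in w1118. Of 12 tested heat shock genes, 11 rose in nej3 and 4 in nejEP1179, where 12.3% and 12.6% of all genes rose. Midgut markers summed to 13.1 to 15.1 CPM in nej3, 7.26 to 11.1 in nejEP1179 and 35.8 to 39.3 in w1118. Of 6 tested, 1 rose and 3 fell in each allele, where 11.7% of all genes fell in nej3 and 12.3% in nejEP1179. Malpighian tubule markers, with Uro at 0 in all 3 groups, came to 26.6 to 34.8 CPM in nej3, 81.2 to 89.6 in nejEP1179 and 89.0 to 107 in w1118. Of 3 tested, 1 fell in nej3 and 0 were called in nejEP1179. Fat body markers came to 9.71 to 11.2 CPM in nej3, 9.001 to 9.965 in nejEP1179 and 3.03 to 3.78 in w1118, with Lsp1alpha at 0 throughout. Of 3 tested, 2 rose in nej3, 1 rose in nejEP1179 and 0 fell. These tissues express many P450 genes, and the part of these differences in the P450 values was not tested.

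**Figure D2:**
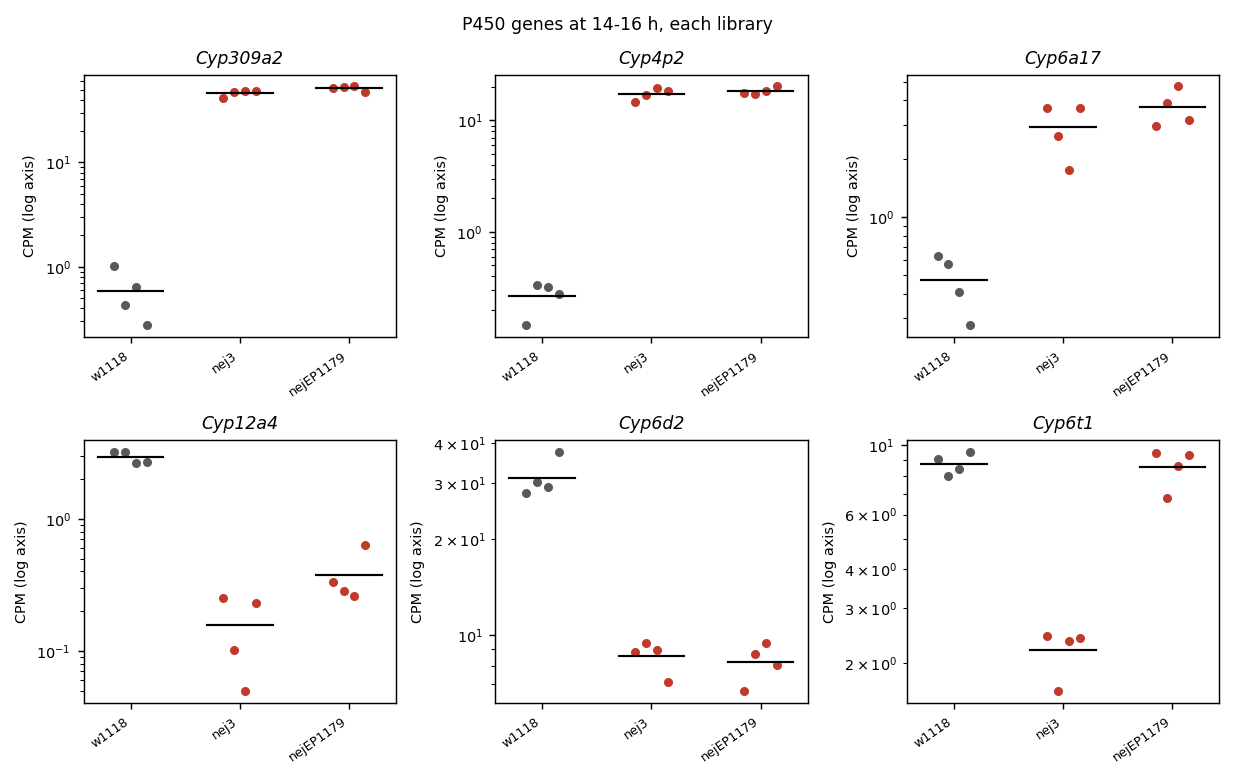
CPM of 6 P450 genes in each of the 12 libraries at 14 to 16 h, on log axes, with w1118 in grey, the nej alleles in red and a line at each group mean. Cyp309a2, Cyp4p2 and Cyp6a17 lie higher and Cyp12a4 and Cyp6d2 lower in all 8 mutant libraries, whereas Cyp6t1 is lower only in the 4 nej3 libraries, at 1.63 to 2.45 CPM.

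The alleles were also compared with each other. Of 61 members, 2 were higher and 5 lower in nej3 than in nejEP1179, where 5.0% of all genes were higher, 4.30% lower and 9.30% called in either direction. With only these groups in the fit, 0 were higher and 4 lower, and the call of Cyp6a9 given below was lost. Cyp6t1 differed most, at 2.45, 1.63, 2.35 and 2.41 CPM in nej3 and 9.45, 6.79, 8.56 and 9.32 in nejEP1179 (-1.94 ± 0.15, adjusted p = 6.10e-07). The nejEP1179 libraries overlapped those of w1118 at 9.05, 7.96, 8.43 and 9.54 CPM, and the 4 nej3 libraries lay below both groups. Cyp311a1, which acts in the brush border of larval midgut cells, showed the reverse arrangement. It stood at 0.529, 0.569, 0.729 and 0.658 CPM in w1118, 0.251, 0.612, 0.80 and 0.747 in nej3 and 1.33, 2.75, 1.71 and 2.76 in nejEP1179, and only the last group lay apart (-1.78 ± 0.31, adjusted p = 0.00176 for nej3 against nejEP1179). Cyp6a9 was higher in nej3 than in nejEP1179 (0.82 ± 0.23, adjusted p = 0.0378), a call that was lost without nej3 replicate 1, 2 or 3 or nejEP1179 replicate 1, 2 or 4 (adjusted p up to 0.0893).

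At 16 to 18 h, 75 members were tested in 5 labelled groups that share the same 3 w1118 libraries. 12 of the 75 were under 1 CPM in w1118, and the 10 left out had means of at most 0.367 CPM. Cyp318a1, Cyp6w1, Cyp6a19 and Cyp12d1-p, with rises given below, are among those under 1 CPM in w1118. Such members can pass the filter through the mutant libraries, which favours rises in the counts. In Dfd1, 16 rose and 32 fell, against 25.5% of all 11366 genes that rose, 27.0% that fell and 52.5% called in all. In the group labelled ez731, 26 rose and 4 fell, against 13.2%, 15.8% and 28.9%. In psce22, 11 rose and 29 fell, against 17.7%, 21.9% and 39.6%. In psch27, 4 rose and 8 fell, against 3.48%, 4.0% and 7.49%. In SppsG8810, 4 rose and 9 fell, against 3.43%, 5.43% and 8.86%. As shares of the members tested, the calls came to 64% in Dfd1, 53.3% in psce22, 40% in ez731, 17.3% in SppsG8810 and 16% in psch27. When only the groups compared entered the fit, 31 members were called in SppsG8810 (14 higher and 17 lower) and 2 in psch27 (1 higher and 1 lower), where the calls of Cyp4g1, Cyp4p2, Cyp9b1, Cyp9b2 and Cyp318a1 given below were lost. In the same fits, 36 members rose and 7 fell in ez731, where the call of Cyp309a2 was lost, and 20 rose and 33 fell in psce22. The count in psce22 was 22 without replicate 1 and 10 without replicate 2. Leaving out a library of Dfd1 or psce22 leaves 1, which is assumed to vary like the other groups, so calls there can be lost through the smaller number alone. With psch27 replicate 1 added to the libraries labelled psce22, 48 members were called, 18 higher and 30 lower. The count in psch27 was 19 without its replicate 1, and 4, 7 and 7 without w1118 replicate 1, 2 and 3.

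**Figure D3:**
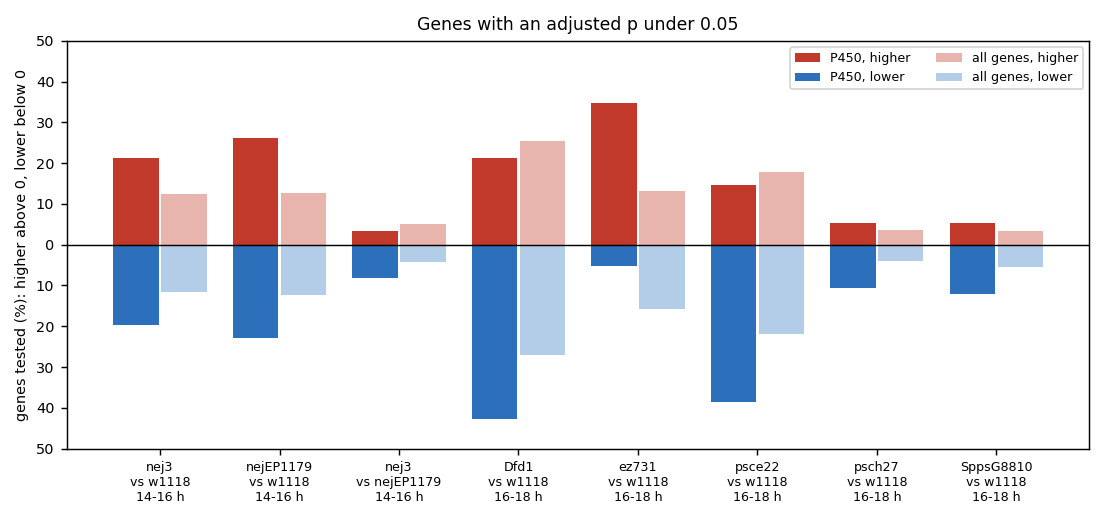
Percent of genes tested that were higher (above 0) or lower (below 0) at an adjusted p under 0.05, for P450 genes in dark and for all genes tested in pale colours, in each of 8 comparisons. In the group labelled ez731, 26 of 75 members rose and 4 fell, and in Dfd1 and psce22 more members fell (32 and 29) than rose (16 and 11).

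The 85 members came to 2490 ± 47.7 CPM in ez731 (SD, n = 3), above all w1118 libraries at 2031 ± 76.0 (n = 3), and to 1478 and 1618 CPM in the Dfd1 libraries and 1594 and 1699 CPM in those labelled psce22. SppsG8810 came to 1918 ± 78.9 and psch27 to 1968 ± 182 CPM (n = 3 each). With raw library totals in place of TMM scaling, a choice made after the data were seen, the sums were 1714 CPM in Dfd1, 2375 in ez731, 1685 in psce22 and 2011 in w1118. The median log2 change of the members was -0.36 in Dfd1, -0.27 in psce22, 0.61 in ez731, -0.09 in psch27 and 0.03 in SppsG8810, beside medians over all genes of -0.02 to 0.02.

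By clan, the rises in the group labelled ez731 lay mostly in the CYP3 clan, where 16 of 38 members rose and 0 fell. In that group the CYP3 sum was 1374 CPM against 881 in w1118. The CYP4 clan had 7 rises and 1 fall among 25, the mitochondrial clan 3 rises and 1 fall among 9, and the CYP2 clan 0 rises and 2 falls among 3, those of Cyp18a1 and Cyp304a1. In Dfd1 falls were counted in the Cyp4 family (3 higher and 13 lower of 19), the Cyp9 family (0 higher and 5 lower of 6) and the Cyp12 family (0 higher and 3 lower of 7). In the Cyp6 family of Dfd1, 7 were higher and 5 lower of 24. In psce22 the Cyp4 family had 1 higher and 11 lower of 19 and the Cyp9 family 0 higher and 4 lower of 6. Over all genes tested, 25.5% were higher and 27.0% lower in Dfd1, 13.2% and 15.8% in ez731 and 17.7% and 21.9% in psce22. No difference between clans or families, or from all genes, was tested.

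Cyp18a1, the ecdysone-inactivating enzyme, was counted at 238, 267 and 259.6 CPM in w1118 and 107 and 116 in Dfd1, where it fell below all other libraries of this age (-1.19 ± 0.09, adjusted p = 9.45e-07). In ez731 it was slightly lower at 221, 194 and 227 CPM (-0.25 ± 0.07, adjusted p = 0.02201), a call that was lost without ez731 replicate 2 or w1118 replicate 2 or 3 (adjusted p up to 0.0986). It did not pass in psce22, psch27 or SppsG8810, whose 8 libraries lay between 224 and 301.4 CPM. Of the cuticle genes, Cyp301a1 ranged from 32.2 to 41.3 CPM over all 16 libraries and passed in no group. Cyp4g1, the hydrocarbon enzyme, was lower in SppsG8810, at 101, 101 and 103 CPM against 138, 145 and 143 in w1118 (-0.48 ± 0.07, adjusted p = 0.000938). In psch27 it was at 131, 105 and 113 CPM and was called (-0.29 ± 0.07, adjusted p = 0.0239), but not without psch27 replicate 2 or 3 or w1118 replicate 1, 2 or 3 (adjusted p up to 0.0874). Without psch27 replicate 1, whose value of 131 CPM is the highest of the 3, the log2 change was -0.38. Cyp4g15 fell in Dfd1 only among the 5 groups by this test, from 38.5, 38.3 and 36.6 CPM to 23.4 and 24.6 (-0.66 ± 0.09, adjusted p = 7.20e-05).

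Cyp304a1, the member with the highest level per kb in the control, differed between groups. It was counted at 223, 229.7 and 248 CPM in w1118, 41.7 and 33.8 in Dfd1, 81.6, 77.9 and 64.2 in ez731 and 84.3 and 91.7 in psce22. Values in psch27 were 51.01, 402 and 275 CPM, with replicate 1 near the psce22 libraries and the other 2 above all controls, and in SppsG8810 156, 159 and 144. It fell in Dfd1 (-2.63 ± 0.60, adjusted p = 0.00357) and in ez731 (-1.65 ± 0.50, adjusted p = 0.0278), although the ez731 call was lost without ez731 replicate 1, 2 or 3 or w1118 replicate 1, 2 or 3 (adjusted p up to 0.0865). In psce22 and SppsG8810 it did not pass (-1.41 ± 0.57, adjusted p = 0.0674 and -0.61 ± 0.48, adjusted p = 0.531), even though all their libraries lay below those of w1118.

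Members tied to toxin metabolism moved in both directions. Cyp6a8 stood at 16.4, 16.4 and 18.2 CPM in w1118 and rose to 97.5 and 195 in Dfd1 (3.10 ± 0.54, adjusted p = 0.000611) and 127, 81.01 and 67.7 in ez731 (2.44 ± 0.50, adjusted p = 0.00426). Libraries labelled psce22 were lower at 8.47 and 7.62 CPM, but the difference did not pass (-1.08 ± 0.58, adjusted p = 0.1604), and SppsG8810 replicate 1 stood out at 89.3 CPM from the other 2 at 27.3 and 34.4. Cyp12d1-p, at 0.400 to 0.605 CPM in w1118, rose in ez731 to 2.76, 2.04 and 2.87 CPM (2.37 ± 0.42, adjusted p = 0.00142). Its neighbour Cyp12d1-d went the other way. Cyp12d1-d had 1.22, 0.884 and 0.4501 CPM in w1118 and 0 counts in all libraries of psce22, psch27 and SppsG8810, which is at least 12-fold, 17.7-fold and 17.1-fold lower than w1118, measured against 3 counts over each group (adjusted p = 0.00812, 0.0142 and 0.0119). The call was lost in psce22 without psce22 replicate 2 (adjusted p up to 0.0631) and in psch27 without w1118 replicate 1 (adjusted p up to 0.0508). In ez731 it fell too, to 0, 0.108 and 0.0512 CPM (-3.84 ± 0.85, adjusted p = 0.01198). Because these neighbours are near-identical, how reads were shared between them bears on both.

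Cyp12a4 and Cyp12a5, adjacent on chromosome 3R, fell together. In Dfd1 and psce22, Cyp12a4 was at 1.02 and 0.983 and 0.862 and 0.608 CPM against 5.902, 5.77 and 5.25 in w1118 (-2.49 ± 0.79, adjusted p = 0.0196 and -2.93 ± 0.83, adjusted p = 0.0167), and psch27 replicate 1 stood near them at 1.02 CPM. Cyp12a5 was at 0.327 and 0.246 and 0.0957 and 0.0468 CPM against 2.09, 1.44 and 1.1 (-2.39 ± 0.71, adjusted p = 0.0126 and -4.33 ± 0.90, adjusted p = 0.00463). The Dfd1 calls were lost without Dfd1 replicate 1 or 2 (adjusted p up to 0.102) for Cyp12a4 and without Dfd1 replicate 1 or 2 (adjusted p up to 0.0773) for Cyp12a5. The psce22 calls were lost without psce22 replicate 1 or 2 (adjusted p up to 0.126) and without psce22 replicate 2 (adjusted p up to 0.0615). With psch27 replicate 1 among the libraries labelled psce22, the log2 changes there were -2.76 for Cyp12a4 (adjusted p = 0.000130) and -3.54 for Cyp12a5 (adjusted p = 0.000209). Cyp12e1, of the same family, fell in Dfd1 (-1.33 ± 0.15, adjusted p = 2.30e-05) and in SppsG8810 (-1.02 ± 0.13, adjusted p = 0.000406), from 12.01, 12 and 13.1 CPM in w1118 to 4.78 and 5.06 and 6.18, 6.64 and 5.501. Cyp6g1 and Cyp6a2, both known from DDT resistance, passed in none of the 5 groups, at 1.26 to 5.30 CPM and 0.224 to 2.76 CPM.

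The group labelled psce22 was marked by the near loss of Cyp6a18 (chromosome 3R, 27478675 to 27482904). Its libraries held 0.383 and 0.187 CPM against 12.1, 11.95 and 9.75 in w1118 (-5.28 ± 1.27, adjusted p = 0.00924), and the call was lost without psce22 replicate 2 (adjusted p up to 0.0912). With psch27 replicate 1, which held 0.0483 CPM, moved to this group, the log2 change was -5.73 (adjusted p = 3.76e-10). Psch27 replicates 2 and 3 stayed at 12.2 and 10.2 CPM, close to the control range. Dfd1 lay between at 3.67 and 3.68 CPM without passing (-1.61 ± 0.90, adjusted p = 0.154), and the 3 libraries labelled ez731 and 3 labelled SppsG8810 were at 14.7 to 17.9 CPM.

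Cyp4p2 was lower in the groups labelled psce22, psch27 and SppsG8810. It was at 15.2, 15.8 and 14.4 CPM in w1118, 0.537, 0.412 and 0.381 in SppsG8810, 4.64, 0.194 and 0.141 in psch27 and 2.68 and 2.06 in psce22. All of these libraries lay below the controls, and the fall was called in SppsG8810 (-5.06 ± 0.93, adjusted p = 0.00628), psch27 (-3.19 ± 0.80, adjusted p = 0.03402) and psce22 (-2.67 ± 0.90, adjusted p = 0.0357). The psch27 call was lost without psch27 replicate 2 or 3 or w1118 replicate 1, 2 or 3 (adjusted p up to 0.0913), and without psch27 replicate 1 the log2 change was -6.44 (adjusted p = 3.16e-08). The psce22 call was lost without psce22 replicate 1 or 2 or w1118 replicate 1, 2 or 3 (adjusted p up to 0.196), and with psch27 replicate 1 added it was -2.27 (adjusted p = 2.64e-06). Dfd1 at 9.31 and 13.1 CPM and ez731 at 5.47, 4.19 and 3.38 did not pass. At 14 to 16 h this gene was at 0.144 to 0.332 CPM in w1118 and rose in both nej alleles, as given above.

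Cyp309a2, the other gene with a large rise in the nej alleles, was higher in Dfd1, ez731 and psce22. Levels were 4.88, 5.12 and 4.25 CPM in w1118, 17.3 and 16.2 in Dfd1, 23.6, 14.9 and 5.94 in ez731 and 14.4 and 14.4 in psce22. The groups did not overlap (1.82 ± 0.51, adjusted p = 0.01002, 1.64 ± 0.47, adjusted p = 0.0218 and 1.60 ± 0.51, adjusted p = 0.0272). The ez731 call was lost without ez731 replicate 1 or 2 or w1118 replicate 1, 2 or 3 (adjusted p up to 0.0868) and the psce22 call without psce22 replicate 1 or 2 or w1118 replicate 1, 2 or 3 (adjusted p up to 0.108). SppsG8810 was on the other side at 2.104, 1.65 and 1.58 CPM without passing (-1.41 ± 0.52, adjusted p = 0.126). Of all members, Cyp4p2 and Cyp6a15Psi were most like Cyp309a2 over the 28 libraries, with Pearson correlations of log2(CPM + 1) of 0.83 and 0.66, a description over libraries that share groups and ages.

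Cyp9b1 and Cyp9b2, a pair of neighbours on 2R, were low in most mutants. Cyp9b2 was at 112, 94.5 and 93.7 CPM in w1118 and fell in Dfd1 to 24.6 and 28.6 (-1.91 ± 0.14, adjusted p = 1.12e-06) and in SppsG8810 to 55.6, 57.4 and 57.2 (-0.82 ± 0.12, adjusted p = 0.000957). It also fell in psce22 (-0.46 ± 0.13, adjusted p = 0.01605) and psch27 (-0.45 ± 0.12, adjusted p = 0.03596), so that with both nej alleles it was lower in 6 of 7 mutant groups. The psce22 call was lost without psce22 replicate 1 or 2 or w1118 replicate 1 (adjusted p up to 0.158), and the psch27 call without psch27 replicate 2 or 3 or w1118 replicate 1, 2 or 3 (adjusted p up to 0.153). Cyp9b1 was at 10.3, 8.65 and 9.75 CPM in w1118 and fell in Dfd1 (-2.30 ± 0.23, adjusted p = 8.72e-06), psce22 (-1.11 ± 0.21, adjusted p = 0.00335), psch27 (-0.84 ± 0.18, adjusted p = 0.0157) and SppsG8810 (-1.30 ± 0.19, adjusted p = 0.000938). The psce22 call of Cyp9b1 was lost without psce22 replicate 2 (adjusted p up to 0.0574) and the psch27 call without psch27 replicate 3 or w1118 replicate 1 or 3 (adjusted p up to 0.07001). Neither gene passed in ez731 (-0.46 ± 0.18 and -0.29 ± 0.12).

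Further falls were seen in Dfd1 and psce22. Cyp28d1 fell from 125, 97.98 and 79.5 CPM in w1118 to 16.2 and 10.2 in Dfd1 (-2.93 ± 0.40, adjusted p = 0.000118) and 31.9 and 22.8 in psce22 (-1.88 ± 0.37, adjusted p = 0.0045), with the psce22 call lost without psce22 replicate 2 (adjusted p up to 0.0629). Cyp4aa1 fell from 60.2, 58.6 and 54.9 CPM to 17.8 and 19.4 and 36.9 and 33.6 (-1.64 ± 0.13, adjusted p = 1.41e-06 and -0.72 ± 0.12, adjusted p = 0.00212). Cyp4d14 was at 10.2, 8.42 and 6.201 CPM in w1118 and fell to 1.27 and 0.5896 in Dfd1 and 1.77 and 1.22 in psce22, but rose to 19.2, 24.2 and 24.7 in ez731 (-3.13 ± 0.45, adjusted p = 0.000137, -2.47 ± 0.43, adjusted p = 0.002501 and 1.45 ± 0.33, adjusted p = 0.00589). No library of these groups overlapped the controls for these genes. The exons of Cyp4d14 overlap the opposite-strand genes ND-B14.5A and asRNA:CR45479, by 1647 bases summed over both. Those of Cyp4aa1 overlap an opposite-strand gene by 334 bases. The strand setting of the counts is not given, so reads of these opposite-strand genes may be included. Cyp49a1 went the other way. It was higher in Dfd1 at 95.2 and 128 CPM and in psce22 at 95.1 and 139.6, against 33.9, 46.3 and 51.7 in w1118 (1.35 ± 0.39, adjusted p = 0.0123 and 1.42 ± 0.39, adjusted p = 0.0149), with the calls lost without Dfd1 replicate 2 (adjusted p up to 0.07902) and without psce22 replicate 2 or w1118 replicate 1 (adjusted p up to 0.127).

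Rises seen in Dfd1, ez731 or SppsG8810 included 3 low-level genes. Cyp311a1 was at 1.78, 2.0 and 2.5 CPM in w1118, 10.04 and 9.38 in Dfd1, 6.49, 6.02 and 6.201 in ez731 and 4.52, 3.96 and 6.1 in SppsG8810. All 8 mutant libraries lay above the controls (2.21 ± 0.23, adjusted p = 1.06e-05, 1.57 ± 0.21, adjusted p = 0.000244 and 1.21 ± 0.21, adjusted p = 0.00344). Cyp6w1 rose in ez731 (3.17 ± 0.54, adjusted p = 0.00107) and Dfd1 (2.11 ± 0.58, adjusted p = 0.00835), from 0.712, 0.651 and 0.5501 CPM to 5.53, 2.63 and 9.17 and 2.73 and 2.8. Cyp318a1, the neighbour of Cyp311a1 on X, was called higher in each of the 5 groups. It stood at 0.712, 0.93 and 0.8001 CPM in w1118 and between 1.41 and 3.09 CPM in the 13 mutant libraries, with log2 changes of 1.58 ± 0.31 in ez731, 1.24 ± 0.33 in Dfd1, 1.30 ± 0.31 in SppsG8810, 1.39 ± 0.33 in psce22 and 1.45 ± 0.31 in psch27. The adjusted p values were 0.00233, 0.00754, 0.0193, 0.00782 and 0.0138 in the same order. Because the 5 comparisons share 3 controls with low values, they are not separate evidence. The call was lost in Dfd1 without Dfd1 replicate 2 (adjusted p up to 0.0506), in psce22 without psce22 replicate 2 (adjusted p up to 0.0994), in psch27 without w1118 replicate 1 (adjusted p up to 0.06604) and in SppsG8810 without SppsG8810 replicate 2 or 3 or w1118 replicate 1, 2 or 3 (adjusted p up to 0.0784). At 14 to 16 h Cyp318a1 passed in neither nej allele. Cyp6t1 (1.36 ± 0.41, adjusted p = 0.0142), Cyp310a1 (1.08 ± 0.38, adjusted p = 0.0296) and Cyp6d2 (0.71 ± 0.27, adjusted p = 0.0437), all lower in nej3, were higher in Dfd1. These Dfd1 calls were lost without Dfd1 replicate 1 (adjusted p up to 0.132), without Dfd1 replicate 1 or 2 or w1118 replicate 1 or 2 (adjusted p up to 0.142) and without Dfd1 replicate 1 or 2 or w1118 replicate 1, 2 or 3 (adjusted p up to 0.175), respectively. Cyp6d2 was also higher in ez731 (0.87 ± 0.25, adjusted p = 0.0197), a call lost without ez731 replicate 1 or w1118 replicate 1 or 2 (adjusted p up to 0.0685). In ez731 a small rise of Cyp12e1 was called as well (0.44 ± 0.13, adjusted p = 0.0188) and was lost without ez731 replicate 2 or 3 or w1118 replicate 1 or 2 (adjusted p up to 0.0817).

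**Figure D4:**
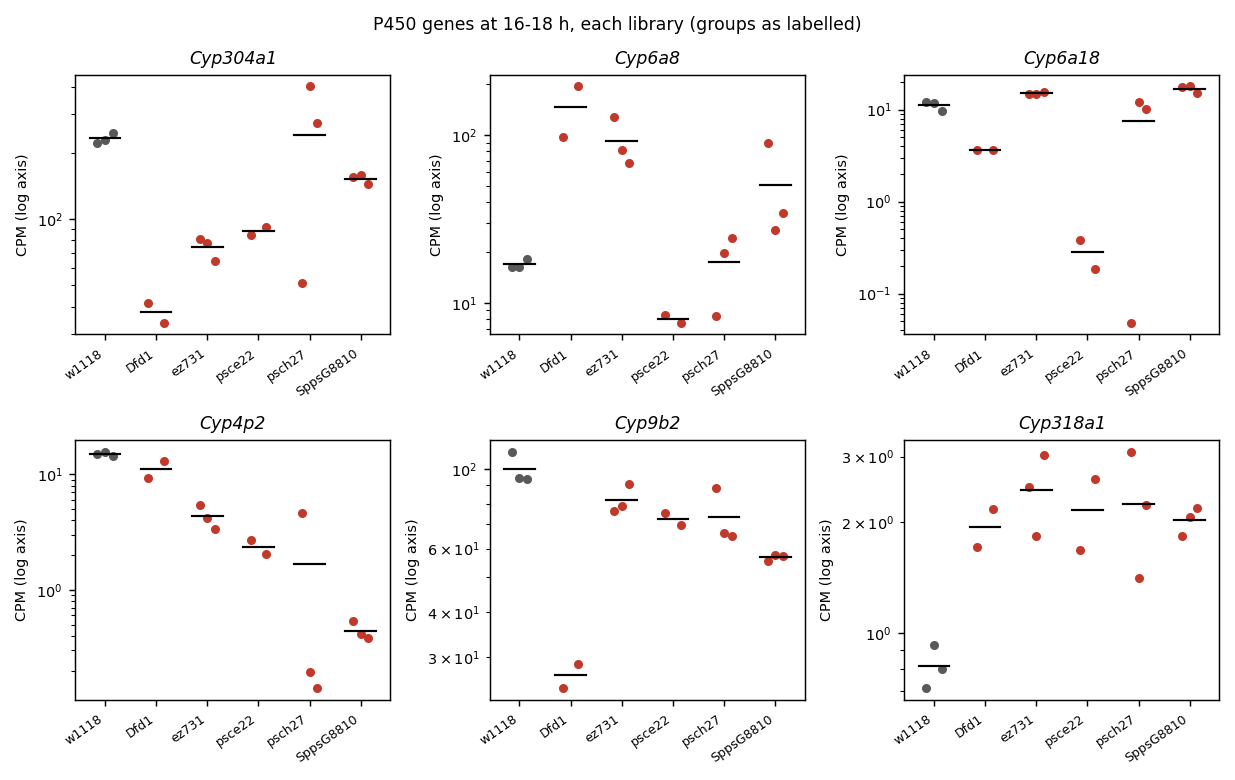
CPM of 6 P450 genes in each of the 16 libraries at 16 to 18 h, on log axes, by labelled group, with w1118 in grey, mutants in red and a line at each group mean. Psch27 replicate 1 lies near the 2 libraries labelled psce22 for Cyp304a1 (51.01 CPM), Cyp6a8 (8.32 CPM) and Cyp6a18 (0.0483 CPM), apart from psch27 replicates 2 and 3.

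The largest cluster, on chromosome 2R from 14871366 to 14903095, held 8 placed members, and neighbours in it did not move as a block. Whether Cyp6a21, which was not placed, belongs to it could not be seen. In order along the chromosome they are Cyp6a22, Cyp6a17, Cyp6a23, Cyp6a19, Cyp6a9, Cyp6a20, Cyp6a8 and Cyp317a1. In nej3, Cyp6a17 and Cyp6a8 rose while Cyp6a22 (-0.41 ± 0.13, adjusted p = 0.0268) and Cyp6a9 fell, and Cyp317a1 did not pass (0.00 ± 0.07, adjusted p = 0.978). Cyp6a22 and Cyp317a1 are described here after their values were seen. Exons of Cyp317a1 overlap an opposite-strand gene for 1331 bases. In nejEP1179 the same 4 genes were called in the same directions, and Cyp6a23 fell too (-0.94 ± 0.23, adjusted p = 0.0156). Cyp6a23, the most abundant of the cluster, rose in ez731 to 196, 245 and 243 CPM from 136, 134 and 129.6 (0.77 ± 0.11, adjusted p = 0.000448) and was slightly lower in Dfd1 (-0.33 ± 0.13, adjusted p = 0.0439), where the call was lost without Dfd1 replicate 1 or w1118 replicate 1, 2 or 3 (adjusted p up to 0.3004).

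At 16 to 18 h Cyp6a22 rose in Dfd1 (1.54 ± 0.29, adjusted p = 0.000752) and psce22 (1.33 ± 0.29, adjusted p = 0.00527), where Cyp317a1 fell (-0.78 ± 0.15, adjusted p = 0.000892 and -0.64 ± 0.15, adjusted p = 0.00687). Cyp6a19 was at 26.1 and 7.96 CPM in the Dfd1 libraries against 0.509, 0.512 and 0.30 in w1118 (5.26 ± 0.80, adjusted p = 0.000231), and it shares 397 bases of exon with an opposite-strand gene. Genes on either side differed: Cyp6a23 is given above, and Cyp6a9 was at 6.04 and 3.83 CPM against 7.22, 5.81 and 6.001 and did not pass (-0.36 ± 0.20, adjusted p = 0.155). Cyp6a20, which modulates aggression in adult males, rose in Dfd1 to 31.02 and 70.9 CPM from 23.8, 20.5 and 19.6 (1.26 ± 0.42, adjusted p = 0.0238), with the call lost without Dfd1 replicate 2 or w1118 replicate 2 or 3 (adjusted p up to 0.3401). Cyp6a9 rose in the other 4 groups. It was at 9.42, 9.78 and 11.9 CPM in ez731, 13.4 and 9.02 in psce22, 15.2, 16.8 and 17.3 in psch27 and 16.7, 17.3 and 17.8 in SppsG8810, all above w1118 (0.71 ± 0.18, adjusted p = 0.009701, 0.82 ± 0.19, adjusted p = 0.00737, 1.37 ± 0.18, adjusted p = 0.000789 and 1.44 ± 0.18, adjusted p = 0.000286). The psce22 call was lost without psce22 replicate 1 (adjusted p up to 0.0851), and the psch27 call held without each library in turn. Cyp6a17 was uneven among libraries at this age, at 7.99, 9.21 and 8.05 CPM in w1118, 17.04 and 13.5 in psce22 and 1.16, 1.54 and 1.74 in SppsG8810. In psch27 it was at 22.6, 1.89 and 1.65 CPM, with replicate 1 closer to psce22 than to the other 2, and it passed in none of the 5 groups.

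**Figure D5:**
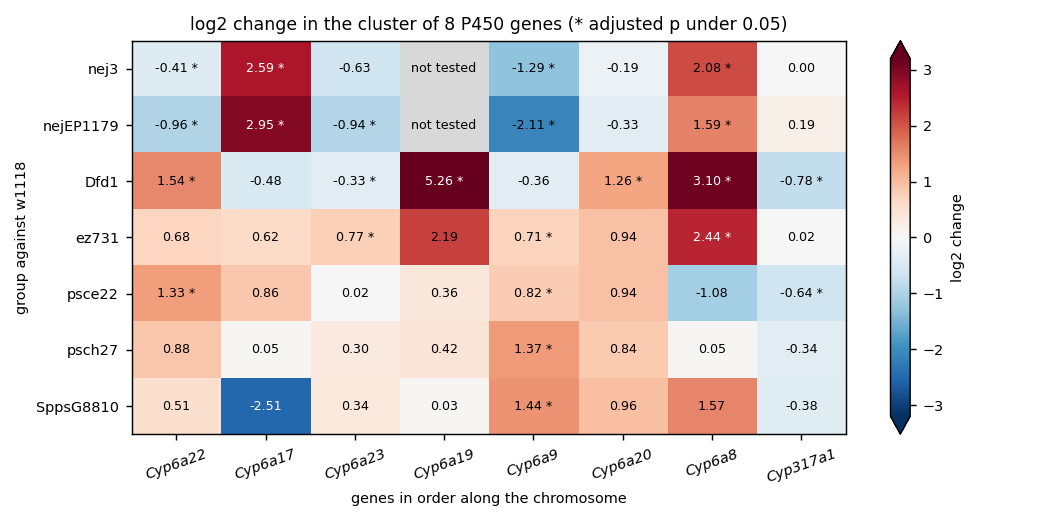
Log2 change against w1118 of the 8 placed members of the cluster on 2R, in order along the chromosome (columns), in 7 labelled mutant groups (rows). An asterisk marks an adjusted p under 0.05. Cyp6a19 was not tested at 14 to 16 h, and its 5.26 in Dfd1 exceeds the colour scale, beside neighbours at -0.33 and -0.36.

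Redox partners were examined next, since P450 enzymes depend on them. Of the 6 genes listed, 5 were found and tested at each age. In nej3, 2 fell and 0 rose, and in nejEP1179, 3 fell and 0 rose, where 11.7% and 12.3% of all genes tested fell. The reductase of the mitochondrial clan, dare, fell from 22.1 CPM in w1118 to 14.8 in nej3 and 13.2 in nejEP1179 (log2 change -0.58 ± 0.10, adjusted p = 0.000418, and -0.75 ± 0.10, adjusted p = 4.72e-05). At 16 to 18 h Cpr, the reductase of all other clans, fell from 501 CPM in w1118 to 230 in Dfd1 (-1.12 ± 0.09, adjusted p = 2.22e-06) and 353 in psce22 (-0.50 ± 0.09, adjusted p = 0.00268). Of the 5 redox genes, 2 fell and 0 rose in both Dfd1 and psce22. In ez731, 1 redox gene rose and 2 fell, in psch27 0 were called, and in SppsG8810 1 rose and 1 fell. Among all genes tested, 25.5% rose and 27.0% fell in Dfd1, 17.7% and 21.9% in psce22 and 13.2% and 15.8% in ez731. The shares were 3.48% and 4.0% in psch27 and 3.43% and 5.43% in SppsG8810. Haem synthesis genes, with 8 tested, gave at most 3 calls in a direction in any comparison, and in psce22 2 rose and 3 fell. The 6 tested regulators of detoxification genes gave at most 1 call in a direction. The largest called change among the regulators was that of tgo in Dfd1 (0.45 ± 0.08, adjusted p = 0.000344).

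The Halloween P450s of ecdysone synthesis were low, summing to 7.24 to 8.18 CPM in w1118 at 14 to 16 h and 17.2 to 18.9 at 16 to 18 h. Of 3 tested at the earlier age, 1 rose in nej3 and 2 in nejEP1179, with phm, the 25-hydroxylase, at 0.69 ± 0.12 (adjusted p = 0.000405) and 0.87 ± 0.12 (adjusted p = 5.02e-05). Of 6 at the later age, 2 rose and 1 fell in Dfd1, 2 fell in psce22 and 0 were called in ez731, psch27 or SppsG8810. Among all genes tested, 12.3% rose in nej3, 12.6% in nejEP1179 and 25.5% in Dfd1, and 27.0% fell in Dfd1 and 21.9% in psce22. In Dfd1, spo rose to 1.31 CPM from 0.0971 (3.67 ± 0.59, adjusted p = 0.000274). This gene is also expressed in ovarian follicle cells, and eggshell transcripts were high in the same libraries, as given above. Their part in the spo difference was not tested.

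Other detoxification families were set beside the P450s with the same fit. Glutathione transferases, which couple glutathione to reactive compounds, had 30 of 35 genes tested at 14 to 16 h, of which 14 rose and 4 fell in nej3 and 7 rose and 6 fell in nejEP1179. At 16 to 18 h, with all 35 tested, 19 rose and 2 fell in ez731, 18 and 7 in Dfd1, 8 and 7 in psce22, 6 and 1 in SppsG8810 and 3 and 2 in psch27. UDP-glycosyltransferases, which attach sugars to small molecules, had 14 of 17 tested at the earlier age, where 2 rose and 2 fell in nej3 and 1 rose and 1 fell in nejEP1179. At the later age, 1 rose and 12 fell of 17 in psce22, 1 and 11 in Dfd1, 5 and 1 in ez731, 2 and 3 in SppsG8810 and 1 and 4 in psch27. Over all genes, 13.2% rose and 15.8% fell in ez731, 25.5% and 27.0% in Dfd1 and 17.7% and 21.9% in psce22. The shares were 12.3% and 11.7% in nej3, 12.6% and 12.3% in nejEP1179, 3.48% and 4.0% in psch27 and 3.43% and 5.43% in SppsG8810. Median log2 changes in Dfd1 were 0.33 for the glutathione transferases, -0.88 for the UDP-glycosyltransferases and -0.36 for the P450s. The difference between families was not tested.

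Markers of tissues that express P450 genes and heat shock transcripts also differed at 16 to 18 h. Midgut markers summed to 86.2 to 171 CPM in ez731 against 24.6 to 32.6 in w1118, and 5 of 6 tested rose. They were 17.2 and 19.7 CPM in Dfd1, 9.33 and 13.6 in psce22, 12.6 to 35.2 in psch27 and 27.1 to 67.0 in SppsG8810. Oenocyte and hydrocarbon genes other than P450s, with 4 of 6 listed found, came to 314.9 and 333.6 CPM in Dfd1 and 401 and 441 in psce22 against 603 to 646 in w1118, and 2 of 4 fell in both groups, with Cpr among them. Fat body markers were 70.1 and 91.8 CPM in psce22, 15.7 and 29.5 in Dfd1, 6.46 to 48.8 in ez731 and 4.19 to 7.25 in SppsG8810, against 5.16 to 6.05 in w1118. In psch27 they were 99.6 CPM in replicate 1 and 3.94 and 4.52 in the others. Of 5 tested, 3 rose in Dfd1, 2 in ez731 and 1 in psce22. Heat shock transcripts summed to 567 and 873.5 CPM in Dfd1, where 5 of 10 tested rose, against 250 to 404 in w1118. They were 391.9 to 485.6 CPM in ez731, with 1 rise and 1 fall, and 231 to 401 in the other mutant groups, with 0 calls. Malpighian tubule markers were 29.8 to 55.1 CPM in all 16 libraries. Of 3 tested, 1 rose and 2 fell in Dfd1, 2 fell in psce22 and 1 fell in SppsG8810, with 0 calls in ez731 and psch27. Genes of other embryonic tissues (nerve, glia, muscle, trachea, epidermis and blood cells) gave 1 call or fewer in either direction in ez731, psch27 and SppsG8810. In psce22, 1 of 8 tested rose and 2 fell. In Dfd1, 6 of 8 fell, beside 27.0% of all genes. Shares of all genes that rose and fell were 25.5% and 27.0% in Dfd1, 13.2% and 15.8% in ez731 and 17.7% and 21.9% in psce22. They were 3.48% and 4.0% in psch27 and 3.43% and 5.43% in SppsG8810. The part of the marker and heat shock differences in the P450 values at this age was not tested.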

How the data were processed

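The authors deposited counts of reads per gene, 1 table for each age, made with featureCounts on dm6 according to the submitters' processing notes, which also name DESeq2. The study's methods for short-read RNA-seq name the snakePipes RNA-seq module, trimming and STAR. They name a stranded mRNA kit for fly heads. The kit of these embryo libraries and the strand setting of their counts are not given in the sources used here. The authors' comparison tables hold fold changes and p-values, which were not used. Only their mean counts, a deposited signal scaled by size factors, served to find which libraries had been compared. Samples were grouped by their labels.

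Counts were tested with edgeR 4.0.16 in R 4.3.3 (filterByExpr, TMM scaling, robust quasi-likelihood fit over all groups of an age) with Benjamini-Hochberg adjustment over all genes tested and a threshold of 0.05. SE is the absolute log2 change divided by the square root of F. CPM used TMM-scaled totals, and floors of 3 counts cover counting error only. Positions came from Ensembl release 115. The code was tested on simulated data.

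Named genes were the 6 most abundant members at each age, members with a stated role, members at 0 in a whole group, and called members with a log2 change of at least 1, a mean of at least 1 CPM and groups apart: the 3 largest each way per comparison and those shared between mutants. P450 members outside this rule are said to be chosen after values were seen. Single genes of the pathway lists (dare, Cpr, tgo, phm and spo) were also outside the rule and were picked after values were seen. Members and lists were chosen with earlier results of these data known. Alternatives were DESeq2 1.42.0, RLE size factors, no filter, only the groups compared, a replicate block, each library left out, libraries regrouped as in the deposited tables and, added after the data were seen, raw library totals.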

Additional observations from a re-analysis of the deposited data

Results flagged for a closer look

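Among 67 groups of 4 libraries examined at 14 to 16 h, 6 held a library far from the other 3 by Dixon's criterion at the 95% level, and chance gives about 1 in 20. In nej3, 1 library had Cyp6a9 at 1.735 CPM against 1.26 to 1.32 in the others, and 1 had Cyp6t1 at 1.633 CPM against 2.35 to 2.45. In nejEP1179, 1 library had Cyp318a1 at 0.7781 CPM against 1.47 to 1.51, and 1 had Cyp6a20 at 12.46 CPM against 8.73 to 9.16. The summed P450 level of 1 nejEP1179 library was 1199 CPM against 1266 to 1279. Cyp18a1 stood at 115.1 CPM in 1 w1118 library against 134 to 136 in the others.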

How the results depend on the processing

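No call of a named gene reversed under any alternative. The count of members called moved by over 1.5 times when only the groups compared entered the fit: 4 in place of 7 for nej3 against nejEP1179, 2 in place of 12 for psch27 and 31 in place of 13 for SppsG8810. The cause was not tested. With each library left out in turn, the counts ranged from 23 to 27 in nej3, 25 to 32 in nejEP1179, 5 to 9 between the alleles, 10 to 33 in psce22, 4 to 19 in psch27, 9 to 11 in SppsG8810, 38 to 43 in Dfd1 and 22 to 27 in ez731. Over named genes, 116 such values lost their call and 521 kept it. The call was lost for 1 value with DESeq2 (97 kept), 1 with RLE size factors (100 kept), 6 without a filter (95 kept), 7 with only the groups compared (87 kept) and 5 with the replicate block (96 kept). DESeq2 and the fits of only the groups compared did not give a value for every call. Values were lacking for Cyp12d1-d in nej3, nejEP1179, ez731, psch27 and SppsG8810. They were also lacking for Cyp12d1-p in both nej alleles and for Cyp4p2 in psce22, psch27 and SppsG8810. In no comparison of 3 or more same-numbered pairs did every pair deviate together: the correlations of deviations from the group means ran from -0.42 to 0.31 against w1118 and from -0.23 to 0.39 between the nej alleles. They were 0.24 to 0.46 between ez731 and SppsG8810, which were not compared, and eggshell and yolk sums were highest in replicate 1 in all groups at 16 to 18 h but psch27. The numbers were therefore not taken to pair mutants with w1118. A fit with the replicate block gave 26 calls in nej3, 29 in nejEP1179, 8 between the alleles, 36 in psce22, 11 in psch27, 14 in SppsG8810, 44 in Dfd1 and 32 in ez731, with adjusted p of 0.0641 for Cyp4aa1 in nejEP1179, 0.0619 for Cyp6a23, 0.0520 for Cyp6d2 and 0.0570 for Cyp310a1 in Dfd1, and 0.0539 for Cyp9b2 in psch27. Groups of 2 libraries and members under 1 CPM limit what could be detected.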
